A study of Mus musculus with 20 samples.

Results

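The genes described here are 9 components of the Hedgehog pathway (Gli1, Gli2, Gli3, Ptch1, Smo, Hhip, Gas1, Boc and Cdon), chosen by name from the 51826 genes of the count table. All 9 had enough counts to be tested, together with 20407 genes in all. They were measured by bulk RNA sequencing of poly(A) RNA in primary renal myofibroblasts, the matrix-producing cells that grow out of kidney tissue in culture, from C57BL/6J mice. The 4 groups of 5 libraries were untreated WT cells, WT cells treated with TGFb1 (a cytokine that activates fibroblasts; 5 ng/μl for 72 hours in the study's description), untreated WWP2-/- cells and WWP2-/- cells treated with TGFb1. The WWP2-/- cells, labelled KO, came from kidneys of mice in which the study found the full-length and N isoforms of WWP2, a HECT-type ubiquitin ligase, deleted. These cells were grown beside the WT cells for 1 to 2 passages. The labels do not tie a library to a mouse, so the p-values measure the spread between these libraries.

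Hedgehog ligands bind PTCH1 with the help of the surface co-receptors GAS1, BOC and CDON, and this releases SMO, which acts at the primary cilium. SMO signalling then turns the GLI2 and GLI3 transcription factors from repressors towards activators, and the activators raise Gli1, Ptch1 and Hhip, so that transcripts of these last genes are commonly read as the output of the pathway. In the kidney the ligands are known from epithelial cells, and the response from the stromal cells around them, pericytes and fibroblasts included.

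Total counts ran from 47520759 to 73063697 per library. Wwp2 itself separated the genotypes: the 10 WT libraries held 50.0 to 59.8 CPM (counts scaled to library size, corrected by the trimmed mean of M values) and the 10 WWP2-/- libraries 17.0 to 22.7 CPM. The cell-type label was checked by marker genes. All 8 fibroblast and all 6 pericyte markers rose above 1 CPM in at least 1 library, although Lum and Pdgfra stayed below it in many (median 0.0831 and 0.593 CPM in treated WWP2-/- cells). All 8 macrophage and all 6 endothelial markers also rose above it in at least 1 library, so this threshold does not separate the cell types. The summed fibroblast markers ran from 3977 to 24801 CPM, against 22.4 to 591 CPM for 8 macrophage markers and 12.1 to 708 CPM for 10 tubular markers, of which 7 rose above 1 CPM anywhere. The fibroblast sum was mostly Vim, Col1a1 and Col1a2 (median 3355, 1362 and 1157 CPM in treated WWP2-/- cells). In the same cells Dcn, Thy1 and S100a4 had medians of 13.9, 2.52 and 0.444 CPM. The highest tubular medians there were those of Pax8 and Cdh16 (125 and 88.8 CPM), so the sum alone does not settle the cell type. These genes were named after their values were seen.

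Libraries within each group were not alike, and this touches most results that follow. Xist, the RNA that coats the inactive X chromosome in female cells, was above 1 CPM in 4 of 5 untreated WT, 4 of 5 treated WT, 2 of 5 untreated WWP2-/- and 1 of 5 treated WWP2-/- libraries. The WT libraries without Xist were untreated WT 4 and treated WT 3. Untreated WWP2-/- 3 and treated WWP2-/- 1, which carried Xist (291 and 225 CPM), held only 38.9 and 50.4 CPM of Acta2, the smooth muscle actin that marks myofibroblasts. The other 18 libraries held 1016 CPM or more. The remaining WWP2-/- library with Xist was untreated WWP2-/- 1, at 33.7 CPM. The low-Acta2 libraries resembled each other across treatments (Pearson r = 0.997 of log2 CPM over the tested genes), and untreated WWP2-/- 2 resembled treated WWP2-/- 5 as closely (r = 0.998). Untreated WT 4 resembled treated WWP2-/- 5 (r = 0.997) more than any of the other untreated WT libraries (r from 0.944 to 0.974). No pair of libraries agreed within sampling noise (the closest pair gave a chi-square of 23.0 per gene). In bulk libraries fewer cells of a type and less RNA per cell cannot be told apart.

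Among the 3 ligands, transcripts were scarce. Shh gave 1 count in 1 of 20 libraries. Ihh gave between 2 and 18 counts per library. Dhh was the most abundant of them, at 0.242 to 4.01 CPM. Dhh averaged 0.898 ± 1.09 CPM in treated WT and 2.57 ± 1.45 CPM in treated WWP2-/- cells (SD, n = 5), a difference of 1.51 ± 0.71 (SE) on the log2 scale that did not pass the test (adjusted p = 0.193, edgeR quasi-likelihood test with Benjamini-Hochberg adjustment over all tested genes).

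Per unit of transcript length the 9 genes spanned a wide range. Gas1 averaged 353 ± 332 TPM (counts per transcript length, scaled to the library) over the 20 libraries, followed by Smo at 77.9 ± 11.5, Cdon at 53.0 ± 28.1, Boc at 34.8 ± 18.7, Gli3 at 15.9 ± 4.13, Ptch1 at 4.33 ± 1.33, Gli2 at 3.14 ± 3.61, Hhip at 0.0959 ± 0.0987 and Gli1 at 0.0855 ± 0.0883 TPM (SD, n = 20). Over all libraries, the ligand-binding co-receptors and the transducer lay at the top, and the output genes Hhip and Gli1 at the bottom. In every group the ranges of Cdon and Boc overlapped, as did those of Hhip and Gli1, although Gli1 was above Hhip in 5 of 5 treated WWP2-/- libraries. Gas1 and Smo also overlapped in both WWP2-/- groups, where Gas1 averaged 117 ± 69.2 untreated and 104 ± 83.2 TPM treated (SD, n = 5) and was above Smo in 4 and 3 of 5 libraries. In untreated and treated WT cells Gli2 (5.58 ± 3.29 and 6.16 ± 3.57 TPM) stood above Ptch1 in mean, with overlapping ranges. In WWP2-/- cells Gli2 (0.410 ± 0.618 untreated and 0.421 ± 0.828 TPM treated) lay below every Ptch1 value of the group.

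**Figure D1:**
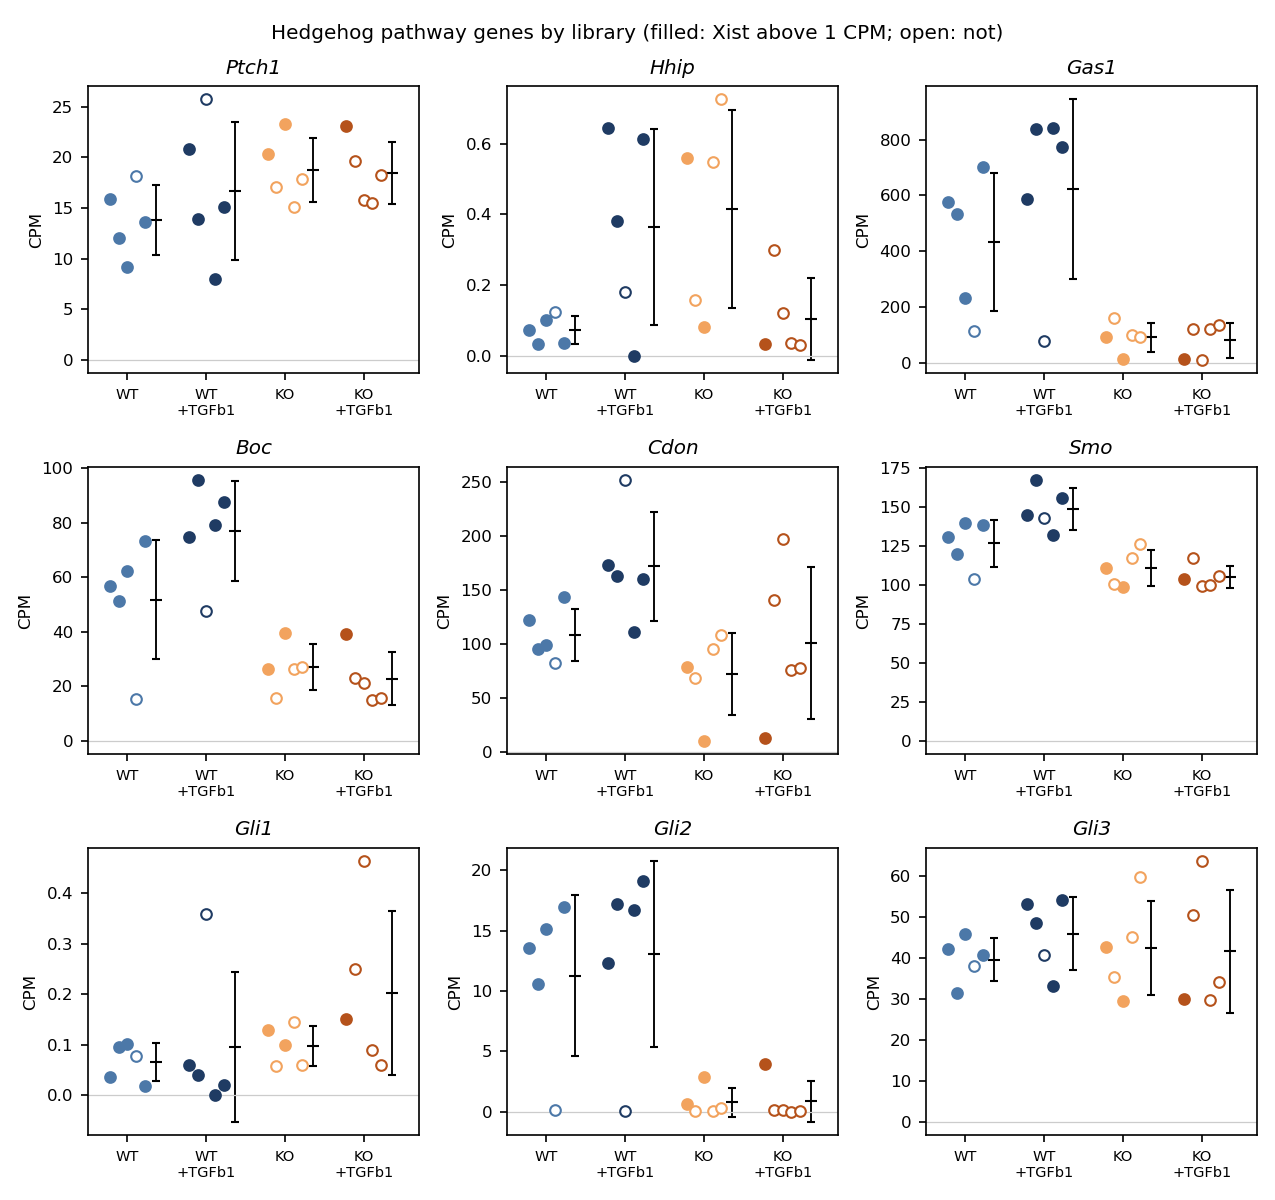
CPM of the 9 genes in each library (y axes, linear), with the libraries of each group drawn from replicate 1 to 5, filled where Xist was above 1 CPM and open where it was not; bars give the mean and SD of 5 libraries. Gli2 lies near 0 in every open point, Smo and Boc separate the treated genotypes, and Gas1 is low in all WWP2-/- libraries and in the open WT points.

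Sequence just upstream of an annotated start was available for 7 of the 9 genes, from RefSeq on GRCm38.p6 (the 250 bases before that start). It is shown for Gli2 and Gas1, both of them lowest, among WT cells, in the libraries without Xist. GLI proteins bind a site whose consensus is GACCACCCA. This 9-letter consensus was searched on both strands and was in 0 of the 7 windows, and in 0.225% of all 32851 windows. Its inner 7 letters, ACCACCC, which overlap the consensus, matched once among the 7, on the opposite strand of the Gli2 window, beginning 205 bases before the start, and 3.92% of all windows held a match. The Gas1 window held a CCAAT box, found in 33.8% of all windows and in 1 of the 7. Capitals mark the match to ACCACCC (as GGGTGGT) in Gli2 and CCAAT in Gas1. The windows lie at chr1:119053620-119053869, minus strand, for Gli2 and at chr13:60177536-60177785, minus strand, for Gas1.
Gli2: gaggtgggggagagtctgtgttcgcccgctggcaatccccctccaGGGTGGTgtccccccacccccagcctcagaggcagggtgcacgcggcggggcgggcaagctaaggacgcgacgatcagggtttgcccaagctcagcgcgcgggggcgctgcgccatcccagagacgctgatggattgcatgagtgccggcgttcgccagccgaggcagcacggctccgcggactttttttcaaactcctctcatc
Gas1: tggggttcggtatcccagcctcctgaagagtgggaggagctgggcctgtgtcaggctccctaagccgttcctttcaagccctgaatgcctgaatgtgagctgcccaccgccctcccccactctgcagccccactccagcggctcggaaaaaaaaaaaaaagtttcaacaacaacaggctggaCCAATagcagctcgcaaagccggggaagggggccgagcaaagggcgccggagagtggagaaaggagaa
By base content, the Gli2 window held 67.2% G and C with 22 CpG dinucleotides and the Gas1 window 58.8% with 10, whereas the median over all windows was 52.4% and 6. Those of Gli3, Ptch1, Hhip and Smo held 34, 41, 28 and 15 CpG, and that of Cdon held 1. The windows of Cdon (chr9:35451826-35452075), Ptch1 (chr13:63565736-63565985) and Gli3 (chr13:15463473-15463722) lie inside the gene spans (35421128 to 35507652, 63508328 to 63573598 and 15463235 to 15730026). They therefore precede internal starts, not the outermost start of the gene.

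The first question was how the genotypes differed under TGFb1, the state in which the cells deposit matrix. Of the 9 genes, 3 were lower in WWP2-/- cells (Smo, Gas1 and Boc) and 0 were higher. Over all tested genes 6.07% passed in this comparison in either direction, and 3.96% were lower. Smo, the signal transducer, and Boc and Gas1, both co-receptors, thus fell, whereas the receptor Ptch1, the effector Gli3 and the output gene Gli1 did not pass. The median log2 fold change of the 9 genes was -0.76, beside 0.05 over all tested genes. For 2 of the 9, Smo and Boc, every treated WWP2-/- library lay below every treated WT library, a separation that 3.08% of tested genes showed in the same direction.

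Gas1 encodes a GPI-anchored co-receptor first known as a growth-arrest gene (ENSMUSG00000052957, chromosome 13, 60174405 to 60177365, minus strand, GRCm38). The treated WT libraries held 589, 838, 76.0, 841 and 774 CPM, in replicate order, and the treated WWP2-/- libraries 13.3, 121, 9.34, 122 and 136 CPM. WT 3, one of the libraries without Xist, fell among the WWP2-/- values, so the groups overlapped, while the other 4 WT libraries were all above them. Gas1 fell by 2.96 ± 0.81 (SE) on the log2 scale (adjusted p = 0.0380, edgeR quasi-likelihood test). This call was lost in 8 of the 10 fits that left out 1 library (adjusted p between 0.0556 and 0.0829 in those), and in the fit with Xist as a covariate, where the difference was -3.20 (adjusted p = 0.162).

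Boc encodes an immunoglobulin-family co-receptor (ENSMUSG00000022687, chromosome 16, 44485049 to 44558897). Its CPM in treated WT libraries were 74.8, 95.7, 47.9, 79.1 and 87.7, and in treated WWP2-/- libraries 39.4, 23.1, 21.2, 15.2 and 15.7. The groups did not overlap. The lowest WT value belonged to the library without Xist, and the highest WWP2-/- value to replicate 1, the WWP2-/- library that carried it. Boc fell by 1.75 ± 0.35 on the log2 scale (adjusted p = 0.0121, edgeR), and by 1.15 with Xist as a covariate (adjusted p = 0.0198).

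Cdon, the paralogue of Boc, did not pass the test (ENSMUSG00000038119, chromosome 9, 35421128 to 35507652). Treated WT libraries held 174, 163, 252, 112 and 161 CPM and treated WWP2-/- libraries 13.8, 141, 198, 76.7 and 78.4 CPM. The groups overlapped, and WWP2-/- 1, the low-Acta2 library, was far below the rest. The fitted difference was -0.76 ± 0.53 (adjusted p = 0.394, edgeR), and a difference between Cdon and Boc was not tested. In untreated WWP2-/- cells the low-Acta2 library was again the lowest, at 10.6 CPM against 68.8 to 108 CPM in the other 4.

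Smo encodes the seven-pass transmembrane protein that carries the signal into the cell (ENSMUSG00000001761, chromosome 6, 29735503 to 29761365). It was the steadiest of the 3, at 145, 167, 143, 132 and 156 CPM in treated WT and 104, 117, 99.7, 100.1 and 106 CPM in treated WWP2-/- libraries. The groups did not overlap, and the WT library without Xist lay between the others. Smo fell by 0.50 ± 0.10 on the log2 scale (adjusted p = 0.0118, edgeR), and by 0.47 with Xist as a covariate (adjusted p = 0.0351).

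Gli2, the main activator of the family (ENSMUSG00000048402, chromosome 1, 118834132 to 119053619), had the largest fitted difference of the 9 and did not pass the test. Treated WT libraries held 12.3, 17.2, 0.0399, 16.7 and 19.1 CPM, and treated WWP2-/- libraries 3.92, 0.166, 0.121, 0 and 0.0740 CPM. WT 3 fell among the lowest values, and the highest WWP2-/- value was that of the low-Acta2 library. The fitted difference was -3.92 ± 1.54 (adjusted p = 0.126, edgeR). Without treated WWP2-/- 1 it was -7.16 (adjusted p = 0.0220, edgeR), the only 1 of the 10 fits without 1 library in which Gli2 passed. Those fits called 453 to 2730 genes in all. DESeq2 with all libraries also called Gli2, among 2672 of 20407 genes, so the call depended on the library set and the method.

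Gli3, the member of the family that acts mostly as a repressor (ENSMUSG00000021318, chromosome 13, 15463235 to 15730026), ranged from 33.2 to 54.1 CPM in treated WT and from 29.8 to 63.7 CPM in treated WWP2-/- libraries. These ranges overlapped over most of their length, and the difference was -0.14 ± 0.22 (adjusted p = 0.738, edgeR). Ptch1, receptor and output gene at once (ENSMUSG00000021466, chromosome 13, 63508328 to 63573598), ranged from 7.94 to 25.7 CPM in treated WT and from 15.5 to 23.1 CPM in treated WWP2-/- libraries. The difference was 0.14 ± 0.24 (adjusted p = 0.766, edgeR).

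Gli1, the effector whose transcript follows pathway activity most closely (ENSMUSG00000025407, chromosome 10, 127329882 to 127341974), gave 3, 2, 18, 0 and 1 counts in treated WT and 9, 15, 23, 5 and 4 counts in treated WWP2-/- libraries. The groups overlapped, and the highest WT value was that of WT 3, the library without Xist. The fitted difference was 1.04 ± 0.75 (adjusted p = 0.417, edgeR), and without that library 2.63 (adjusted p = 0.0252, edgeR). Fits of this comparison without 1 library called 453 to 2730 genes in all, against 1238 with every library. Hhip, the decoy that binds ligand at the surface (ENSMUSG00000064325, chromosome 8, 79965851 to 80058006), gave 32, 19, 9, 0 and 30 counts in treated WT and 2, 18, 6, 2 and 2 counts in treated WWP2-/- libraries. The groups overlapped, with a fitted difference of -1.79 ± 0.82 (adjusted p = 0.187, edgeR). Wwp2 lies on the same chromosome, at 107436365 to 107558595, and an effect of position was not tested.

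**Figure D2:**
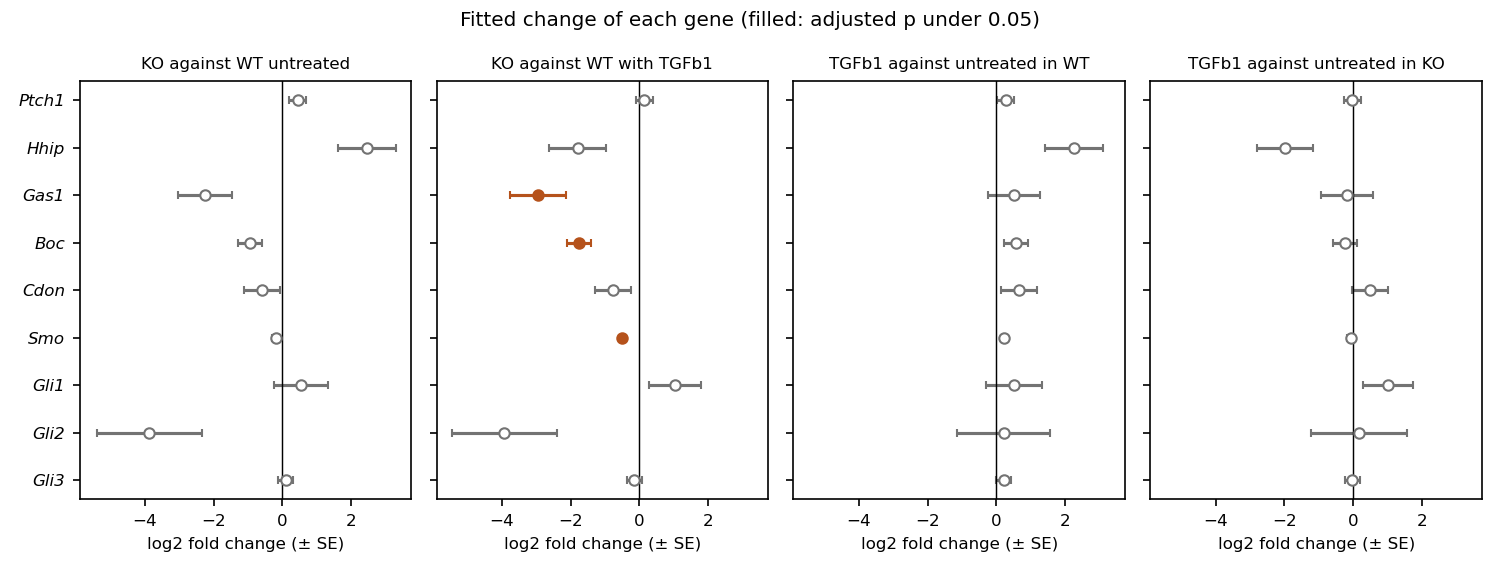
Fitted log2 fold change (x axes, first group over second) with its SE for each of the 9 genes in the 4 pairwise comparisons; filled points passed an adjusted p of 0.05 by edgeR's quasi-likelihood test. Only Gas1 (-2.96), Boc (-1.75) and Smo (-0.50) are filled, all in WWP2-/- against WT with TGFb1.

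In untreated cells 0 of the 9 genes passed between the genotypes, where 0.725% of all tested genes did (148 genes, and 1 to 743 when 1 library was left out). The fitted differences of Gas1, Boc, Cdon, Smo and Gli2 were negative here too, whereas those of Gli3 and Hhip changed sign, and none passed. The median of the 9 was -0.19, beside 0.08 over all tested genes. At an unadjusted p under 0.05, the edgeR test held 3044 of the 20407 genes. At an adjusted p under 0.05, DESeq2 called 1 of the 9, Gas1, and 743 of the 20407 genes. No member separated the untreated genotypes without overlap, whereas 2.79% of tested genes did in either direction.

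Untreated WT libraries held 578, 535, 233, 114 and 703 CPM of Gas1, and untreated WWP2-/- libraries 91.2, 158, 12.3, 98.2 and 92.9 CPM. WT 4, which lacked Xist, was the only WT library under the highest WWP2-/- value. The difference was -2.26 ± 0.79 (adjusted p = 0.202, edgeR). Boc was at 56.8, 51.2, 62.3, 15.5 and 73.5 CPM in untreated WT and at 26.4, 15.7, 39.5, 26.6 and 27.2 CPM in untreated WWP2-/- libraries. Here too WT 4 was the library that overlapped. The difference was -0.94 ± 0.34 (adjusted p = 0.222, edgeR), and without WT 4 it was -1.21 (adjusted p = 0.0204, edgeR). Untreated fits without 1 library called 1 to 743 genes in all, against 148 with every library.

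Gli2 read 13.6, 10.5, 15.1, 0.124 and 17.0 CPM in untreated WT and 0.636, 0.0287, 2.88, 0.0722 and 0.267 CPM in untreated WWP2-/- libraries. As with TGFb1, 4 of 5 WT libraries were above all of the WWP2-/- libraries and the fifth was among them. The difference was -3.87 ± 1.54 (adjusted p = 0.258, edgeR). Smo ran from 104 to 140.1 CPM in untreated WT and from 98.9 to 126 CPM in untreated WWP2-/- libraries, a difference of -0.19 ± 0.10 (adjusted p = 0.362, edgeR). Whether the genotype difference of Smo depended on treatment was tested by the interaction, which was -0.31 ± 0.14 (adjusted p = 0.680, edgeR).

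Ptch1 ran from 9.22 to 18.1 CPM in untreated WT and from 15.1 to 23.3 CPM in untreated WWP2-/- libraries, with a difference of 0.44 ± 0.24 (adjusted p = 0.405, edgeR). Gli3 averaged 39.6 ± 5.33 CPM in untreated WT and 42.5 ± 11.5 CPM in untreated WWP2-/- cells (SD, n = 5). Cdon averaged 109 ± 24.3 and 72.6 ± 37.9 CPM in the same groups. Gli1 gave 1 to 6 counts in untreated WT and 4 to 10 counts in untreated WWP2-/- libraries, and the groups overlapped. Hhip gave 4, 2, 5, 8 and 2 counts in untreated WT and 43, 11, 4, 38 and 49 in untreated WWP2-/- libraries. All WWP2-/- libraries but the low-Acta2 library were above every WT library, and the difference was 2.46 ± 0.85 (adjusted p = 0.196, edgeR).

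The next question was the response to TGFb1 within each genotype. In neither did any of the 9 genes pass (0 of 9 in WT and 0 of 9 in WWP2-/- cells), and over all 20407 genes edgeR called 0% in WT, 0% in WWP2-/- cells and 0% for the interaction. At an unadjusted p under 0.05 the edgeR test held 1397, 713 and 1424 genes in these comparisons. DESeq2, at an adjusted p under 0.05, called 27, 49 and 10. None of the 9 genes separated treated from untreated libraries, where 1.35% of tested genes did in WT and 0.377% in WWP2-/- cells. Of 7 known TGFb1 response genes (Acta2, Tagln, Col1a1, Fn1, Ccn2, Postn and Smad7), 0 passed in either genotype. In WT cells 7 of the 7 had a positive fitted change (median 0.42). In WWP2-/- cells 3 were positive and 4 negative (median -0.03). Acta2 in WT cells was at 1432 to 2020 CPM treated against 1016 to 1305 CPM untreated, without overlap (0.54 ± 0.76, adjusted p = 0.954, edgeR). In WWP2-/- cells Acta2 overlapped, at 50.4 to 3430 CPM treated and 38.9 to 3283 CPM untreated.

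In WT cells the fitted change was positive for 9 of the 9 genes, from 0.21 for Gli3 to 2.27 for Hhip, with a median of 0.52 beside 0.02 over all tested genes. The sign turned with 1 library for Gli1 (-1.08 without treated WT 3) and for Gli2 (-0.11 without untreated WT 4). In WWP2-/- cells 3 were positive and 6 negative, with a median of -0.03 beside 0.00 over all tested genes. These comparisons use the same libraries as the comparisons of the genotypes. Smo came nearest to the threshold in unadjusted terms in WT among the well-expressed genes (0.23 ± 0.10, adjusted p = 0.677, edgeR), at 127 ± 15.1 CPM untreated and 149 ± 13.6 CPM treated (SD, n = 5). Ptch1 moved from 13.8 ± 3.44 to 16.7 ± 6.81 CPM in WT (adjusted p = 0.919, edgeR) and from 18.7 ± 3.16 to 18.4 ± 3.10 CPM in WWP2-/- cells (adjusted p above 0.99, edgeR).

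For Hhip the fitted changes of the genotypes had opposite signs, as they had for Gli3, Ptch1, Smo, Gas1 and Boc, and its difference between them was the widest of the 9. In WT cells its counts were 2 to 8 untreated and 0 to 32 treated, a fitted change of 2.27 ± 0.85. In WWP2-/- cells they were 4 to 49 untreated and 2 to 18 treated, a fitted change of -1.99 ± 0.82. The interaction was -4.25 ± 1.18 and did not pass (adjusted p = 0.511, the smallest adjusted p that any gene reached in that edgeR test). The depth of Hhip, at most 49 counts per library, limits what can be said of it.

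The level of Gli2 went with that of Xist from library to library, in both genotypes. The 8 WT libraries with Xist held 10.5 to 19.1 CPM of Gli2 and the 2 without it 0.0399 and 0.124 CPM. The 3 WWP2-/- libraries with Xist held 0.636, 2.88 and 3.92 CPM, and the 7 without it at most 0.267 CPM. Among libraries with Xist, the WWP2-/- values were all below the WT values, but 2.88 and 3.92 CPM were those of the low-Acta2 libraries. Within WWP2-/- cells, this comparison and the Xist covariate therefore rest mostly on libraries that also differed in Acta2. Pdgfra, the receptor that marks fibroblasts, was chosen after its values were seen and split in the same places. Pdgfra was at 14.4 to 179 CPM in libraries with Xist and at most 1.87 CPM in those without. With Xist as a covariate, the genotype difference of Gli2 under TGFb1 was -1.68 (adjusted p = 0.198, edgeR), and 2.67% of tested genes passed under TGFb1 and 0.407% in untreated cells. The labels give no sex of the animals, and the part of Xist-linked differences between cultures in these results beyond that covariate was not tested.

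**Figure D3:**
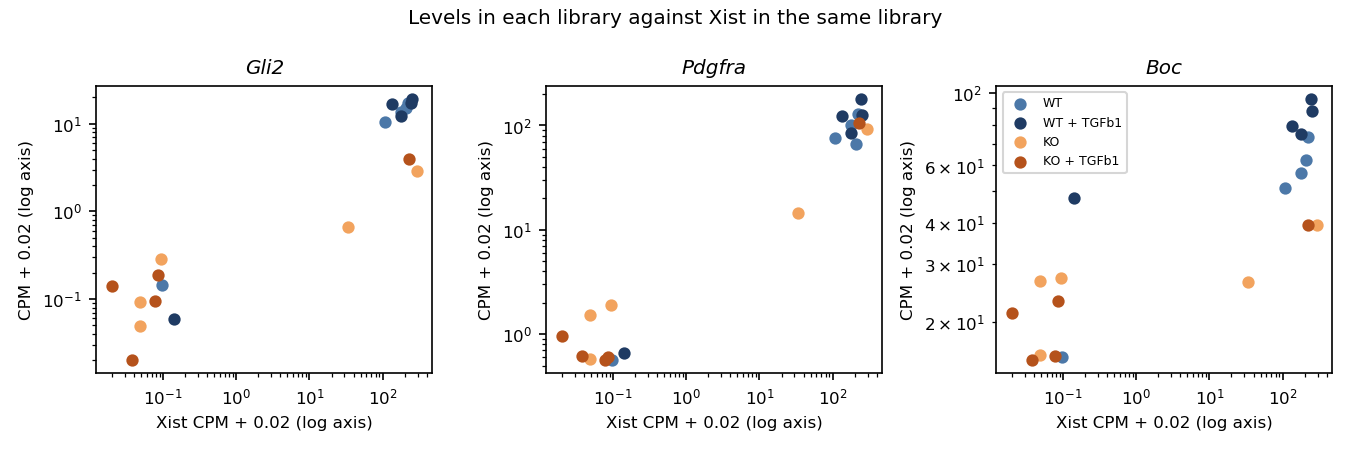
CPM of Gli2, Pdgfra and Boc (y axes) against CPM of Xist (x axes) in the 20 libraries, both with 0.02 added and on log axes, coloured by group. The 11 libraries with Xist (8 WT and 3 WWP2-/-) lie above the 9 without it in Gli2 and Pdgfra, with untreated WWP2-/- 1 between (0.636 and 14.4 CPM). The Boc values of libraries without and with Xist overlap, at 15.2 to 47.9 and 26.4 to 95.7 CPM.

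The genes whose log2 levels followed each member most closely over the 20 libraries were listed by Pearson r, as a description, since the libraries fall into sets that share many differences. For Gli2 they were Ebf2 (r = 0.995), Avpr1a (0.993) and Lum (0.987), Lum being an extracellular matrix proteoglycan of fibroblasts. For Boc they were Reck (0.983), Ehbp1 (0.976) and Obsl1 (0.972). For Gas1 they were Arhgap18 (0.967), Efemp1 (0.957) and Selenop (0.951). Smo was closest to Acadsb (0.969), Pdha1 (0.954) and Stim1 (0.946), and Acadsb and Pdha1 encode mitochondrial enzymes. Cdon was closest to Plod2 (0.971), Mid2 (0.963) and Rap2a (0.963), and Gli3 to Plcb3 (0.957), Fam168a (0.943) and Farp2 (0.931). Ptch1 was closest to Rif1 (0.937), Rffl (0.912) and Azin1 (0.908). At their few counts, Hhip was closest to Adamts3 (0.875), Sufu (0.859) and Rapgef6 (0.859), and Gli1 to Fam210b (0.884), Maco1 (0.883) and Megf10 (0.873). Between the 9 genes themselves, r was 0.91 for Gli2 with Boc, 0.84 for Smo with Boc and 0.73 for Smo with Gas1, but 0.06 for Gli2 with Cdon and -0.51 for Gli2 with Ptch1.

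The rest of the pathway was read from lists of its other parts. Of 23 intracellular regulators, 1 was lower in WWP2-/- cells with TGFb1 and 0 were higher, a share near the 3.96% of all tested genes. This was Kif7, the ciliary kinesin-like protein that controls GLI processing, whose mean was 14.5 ± 1.59 CPM for WT and 7.62 ± 0.702 CPM for WWP2-/- libraries (SD, n = 5). The groups did not overlap, and Kif7 fell by 0.93 ± 0.15 on the log2 scale (adjusted p = 0.00614, edgeR). Sufu, the inhibitor that holds GLI proteins, did not pass (-0.19 ± 0.11, adjusted p = 0.299, edgeR). In untreated cells Sufu did not pass either (0.36 ± 0.11, adjusted p = 0.137, edgeR), although every WWP2-/- library (41.5 to 58.4 CPM) lay above every WT library (33.6 to 40.9 CPM). This untreated value was added after it was seen, and the interaction of Sufu was -0.55 ± 0.16 (adjusted p = 0.511, edgeR). Of 12 ciliary transport genes, 1 was lower, beside the same 3.96% of all tested genes. It was Ift27, an intraflagellar transport subunit, at 18.6 ± 1.94 against 29.7 ± 6.14 CPM, again without overlap (-0.67 ± 0.18, adjusted p = 0.0347, edgeR). Of 6 genes of ligand release and 2 other receptors, 0 passed in either state, beside 6.07% of all tested genes with TGFb1 and 0.725% untreated.

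Of 10 genes described elsewhere as Hedgehog targets, 1 was lower with TGFb1, beside 3.96% of all tested genes. This was Sfrp1, a secreted Wnt antagonist, at 1.09 to 4.80 CPM in treated WWP2-/- and 9.32 to 1023 CPM in treated WT libraries (-7.57 ± 1.19, adjusted p = 0.00581, edgeR). The lowest of these WT values was again the library without Xist. In untreated cells Sfrp1 was also lower (-6.23 ± 1.12, adjusted p = 0.0214, edgeR), with overlap. Foxl1, a forkhead factor of stromal cells, was higher in untreated WWP2-/- cells, at 12.8 ± 5.62 against 2.75 ± 0.411 CPM, without overlap (2.22 ± 0.48, adjusted p = 0.0432, edgeR). With TGFb1 the Foxl1 groups overlapped (0.70 ± 0.46, adjusted p = 0.373, edgeR). In untreated cells 1 target was thus higher and 1 lower, where 0.725% of all tested genes passed, and with TGFb1 only Sfrp1 passed.

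**Figure D4:**
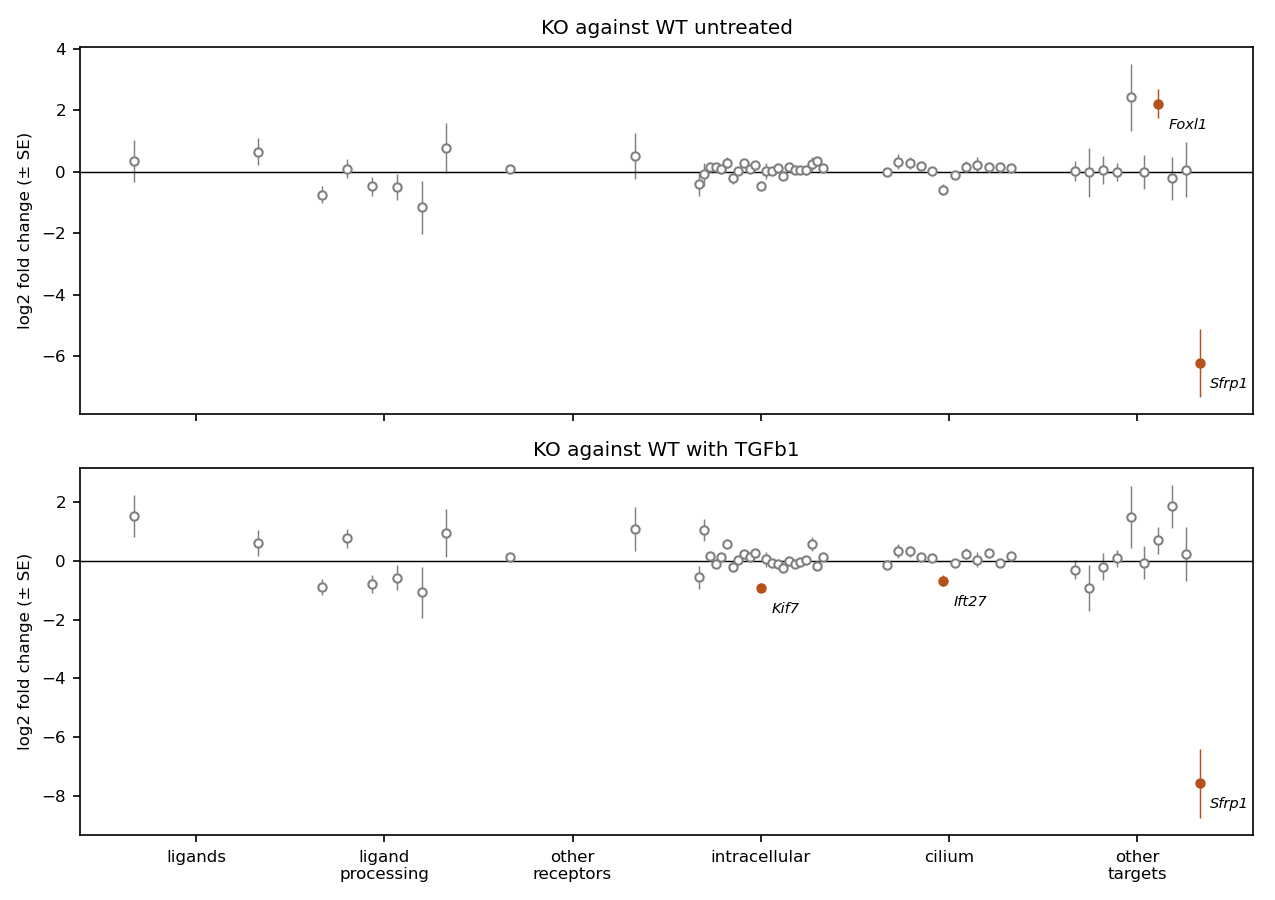
Fitted log2 fold change of WWP2-/- against WT (y axes, with SE) for the tested genes of 6 lists of other pathway genes (x axis), in untreated cells above and with TGFb1 below; filled, named points passed an adjusted p of 0.05. Most open points lie near 0, and Sfrp1 lies far below at -6.23 and -7.57.

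Markers of other cells and of the fibroblast state were read beside these results. Summed fibroblast markers (8 genes) ran from 10074 to 24801 CPM in treated WT and from 4590 to 11780 CPM in treated WWP2-/- libraries. Of the 8 genes, 2 passed as lower, beside 3.96% of all tested genes. Summed macrophage markers (8 genes, 0 of which passed) ran from 22.4 to 92.8 CPM in treated WT and from 38.6 to 474 CPM in treated WWP2-/- libraries, and tubular markers (7 of 10 tested, 0 passed) from 36.6 to 198 and from 12.1 to 546 CPM. Summed endothelial markers (6 genes) ran from 29.5 to 171 CPM in treated WT and from 10.98 to 152 CPM in treated WWP2-/- libraries. Of the 6, 2 passed as lower, beside the same 3.96%, and 0 as higher. Fitted differences were positive for 4 of them, and the median of the sums was 36.8 CPM in WT and 76.6 CPM in WWP2-/- libraries. Summed podocyte markers (4 genes, 1 passed as lower) ran from 58.1 to 125 CPM in treated WT and from 23.9 to 55.3 CPM in treated WWP2-/- libraries. Of the 6 pericyte markers, 0 passed. The part of these differences in the values of Gas1, Boc and Smo was not tested.

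The genotype comparisons were repeated without the 4 libraries that stood apart (untreated WT 4, treated WT 3, untreated WWP2-/- 3 and treated WWP2-/- 1). With TGFb1, 5 of the 9 genes then passed, at a background of 32.5% of tested genes. Smo, Gas1, Boc and Gli2 (-7.47) were lower and Gli1 (2.72) was higher. In untreated cells 4 passed, at a background of 14.6%: Gas1 (-2.26), Boc (-1.39) and Gli2 (-5.83) were lower and Hhip (2.97) was higher. In that fit all 8 WT libraries carried Xist and 1 of the 8 WWP2-/- libraries did, so genotype and Xist can hardly be told apart in it.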

How the data were processed

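Poly(A) RNA libraries of primary renal myofibroblasts were sequenced as paired ends by the authors, who aligned the reads to GRCm38 (mm10, Ensembl 89) with STAR and counted them over exons with featureCounts. The deposited values are raw read counts per gene for 51826 genes in 20 libraries, and the strand setting of the counting is not given in the sources used here. A gene entered the test if 5 or more libraries had 5 or more counts of it (20407 genes). Counts were fitted with edgeR 4.0.16 (TMM scaling, quasi-likelihood test, 4 groups, all libraries, no block) with Benjamini-Hochberg adjustment over the kept genes and a threshold of 0.05. SEs are the log2 fold change over the square root of F. DESeq2 1.42.0, DESeq2 size factors, other filters, Xist as a covariate, a replicate block, fits of the compared groups alone and fits without 1 library were the alternatives. TPM used merged GENCODE M21 exon lengths. The fit was tested on simulated data. The genes and lists were chosen with earlier results of these data known. Beyond the 9 genes and the 3 ligands, text names list genes that passed the test and the 3 genes most alike to each member (mean of at least 1 CPM); exceptions are stated. Some items are not reported here.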

Additional observations from a re-analysis of the deposited data

Results flagged for a closer look

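In each group of 5 libraries the highest and lowest CPM of the 9 genes were tested by Dixon's criterion (gap over range above 0.71), in 36 combinations of gene and group, of which 3 stood out. Chance gives about 1 in 20 for normally distributed values, which CPM near 0 need not be, so the rate for these sets is not known. Gli1 in treated WT replicate 3 was at 0.359 CPM, where the next library held 0.0605 CPM. Gli2 in untreated WWP2-/- replicate 3 was at 2.88 CPM, where the next held 0.636 CPM, and in treated WWP2-/- replicate 1 at 3.92 CPM, where the next held 0.166 CPM. These are the WT library without Xist and the WWP2-/- libraries with low Acta2.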

How the results depend on the processing

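The count of the 9 genes that passed between genotypes was 3 with TGFb1 and 0 untreated. With TGFb1 it was 5 without the 2 WT libraries lacking Xist and 5 without the 4 libraries that stood apart. Untreated it was 1 by DESeq2 (Gas1), 1 without the 2 WT libraries lacking Xist and 4 without the 4 libraries. Calls over all genes rose too: 3322 of 20172 with TGFb1 and 1136 untreated without the WT pair, and 743 of 20407 untreated by DESeq2. These omissions were chosen after seeing the data. Leaving out 1 library at a time gave 2 to 4 with TGFb1 and 0 to 1 untreated. With TGFb1, DESeq2 added Gli2 (-3.93, adjusted p = 0.0263), where 2672 of 20407 genes passed. Gas1 was lost when only the compared groups were fitted (adjusted p = 0.0927, edgeR), where 534 of 18554 genes passed. Over all genes, calls with TGFb1 numbered 1238, and 453 to 2730 with 1 library left out. Replicate numbers did not pair the libraries (same-number correlations from -0.54 to 0.47, with 1 of 10 best matched to its own number). With the replicate block 3 of the 9 genes passed with TGFb1 and 0 untreated, and over all genes 670 and 1. The response to TGFb1 and the interaction gave 0 of the 9 in every alternative run. In no alternative did a called gene change direction. Hhip and Gli1, with at most 49 and 23 counts in any library, are limited by depth. Gli2 and both of these were not tested with a filter of 10 counts in every library, which removes them.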
